A study of Homo sapiens with 2 samples.

Results

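The 36 genes described here encode enzymes and regulators of cholesterol and fatty acid synthesis. They were taken by symbol from a fixed list, 22 for the sterol branch and 14 for the fatty acid branch, out of 55771 gene symbols in the deposited tables, and each of the 36 had 1 row in both. The study compared 2 stably transfected derivatives of BFTC 905, an established human urothelial carcinoma line of the bladder. The control carried the empty vector, pcDNA3.1-myc-His (-) A, and the other carried a plasmid that overexpresses ANGPTL4, a secreted inhibitor of lipoprotein lipase. Both grew in RPMI-1640 with 10% FBS and were selected with G418 at 400 ug/ml, so resistance to that drug is common to both. The labels call them stable clones and do not say how many clones each RNA came from.

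One library of total RNA was sequenced per group, so no difference below has a replicate check, there is no test and no p-value, and transfection, clone, culture and library cannot be told apart. The steps of the RPKM values, read counts divided by exon length and library size, gave library totals of 6572767 reads for the control and 3233596 for the ANGPTL4 plasmid. Reads of a member ranged from 24 to 9665 for the control and from 7 to 4137 for the ANGPTL4 plasmid. Ratios are given as ANGPTL4 over control with an exact 95% interval that covers counting error only. ANGPTL4 itself had 64 and 732 reads, a ratio of 23 (18 to 30.5), with plasmid and chromosomal transcripts not separated, although the free-text description of both samples calls its expression low. All 9 epithelial and urothelial markers looked up were measured, whereas 8 of 12 hepatocyte, adipocyte and macrophage markers, among them ALB and ADIPOQ, were listed at 0 in both libraries, and the 12 summed to 1.17 RPKM with the empty vector and 1.35 RPKM with the ANGPTL4 plasmid. In such bulk RNA, fewer expressing cells and less RNA per cell give the same value.

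Cholesterol is built from acetyl-CoA through mevalonate, farnesyl diphosphate, squalene and lanosterol, while fatty acids are built by carboxylating acetyl-CoA to malonyl-CoA and joining the units into palmitate, which is then desaturated or elongated. Both branches draw on cytosolic acetyl-CoA and NADPH. Their genes are controlled by the membrane-bound transcription factors SREBP-2, encoded by SREBF2, and SREBP-1, encoded by SREBF1. When sterols are scarce, SCAP escorts these factors to the Golgi for cleavage, and when sterols are plentiful, INSIG proteins hold SCAP in the endoplasmic reticulum.

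Most sterol genes had lower values in the ANGPTL4 library, with the lowest ratios at HSD17B7, IDI1 and SQLE and with each of the 3 genes from squalene to lanosterol lower. All 22 reached 1 RPKM in at least 1 library, the limit used for a measured gene. Of these, 19 were lower and 3 higher, or 86.4% lower, where 64.4% of all 11801 measured genes were lower. The median log2 ratio, taken on log2(RPKM + 1), was -0.25 for the sterol branch and -0.11 for all measured genes. A difference of at least 1.5-fold on that scale was found for 3 sterol genes, IDI1, HSD17B7 and SQLE, all lower, against 9.25% of all measured genes, and for none on the higher side, against 3.08%. HSD17B7 reached the minimum of 1 RPKM only through the control, where it was the higher of the 2 values but still only 1.55 RPKM. Its place in this count, among the 19 lower genes and in the interval counts below is therefore no support. Summed over the 22 genes, the level was 386 RPKM with the empty vector and 325 RPKM with the ANGPTL4 plasmid.

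**Figure D1:**
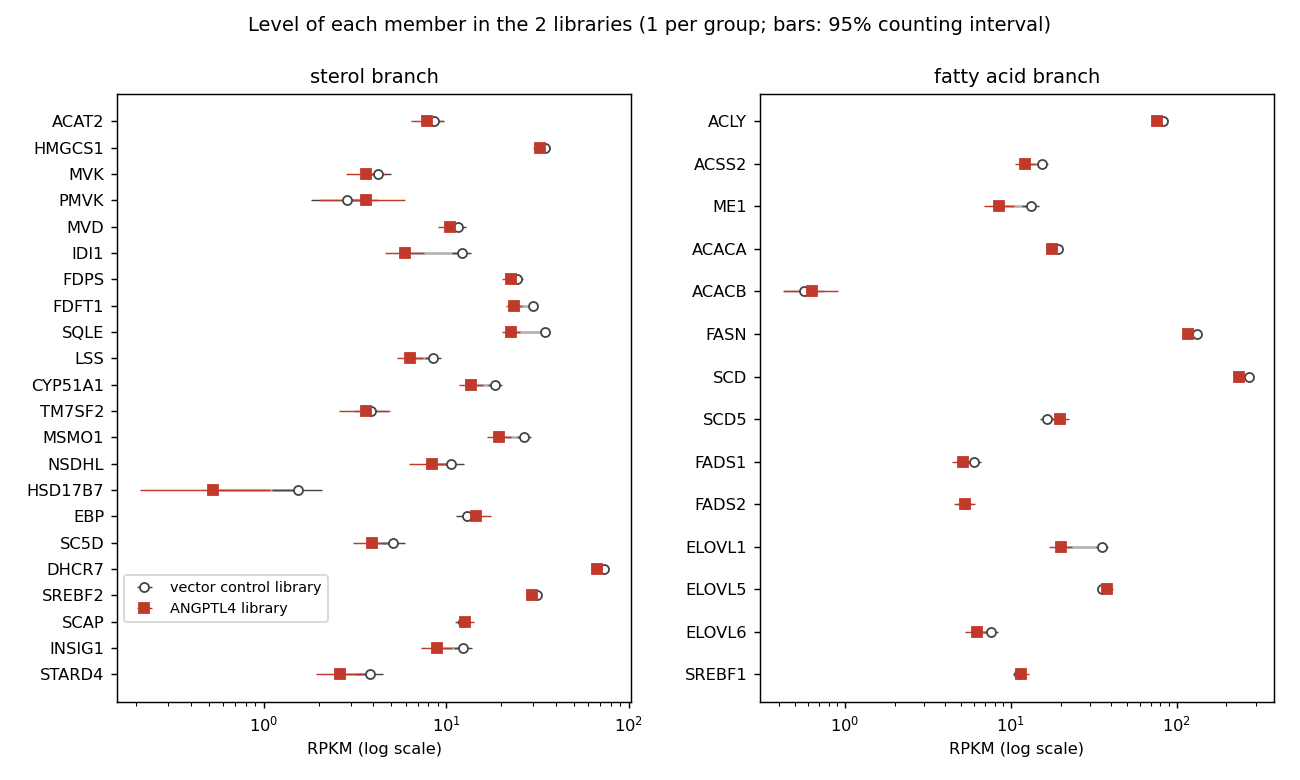
RPKM (log axis) of each of the 36 genes in the vector control library (open circles) and the ANGPTL4 library (filled squares), with 95% counting intervals, in pathway order from top to bottom. The widest gaps are those of HSD17B7, IDI1 and ELOVL1, while HMGCS1, FDPS, SREBF1 and FADS2 lie almost on top of each other.

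Counting error and the common shift of the libraries both bear on these ratios. The median gene had a plain RPKM ratio of 0.911, so a ratio near that value is what the middle of the transcriptome showed. The counting interval lay wholly below 1 for 10 of 22 sterol genes, against 28.2% of the 11065 measured genes with settled read numbers, and wholly above 1 for none, against 8.61%. It lay below 0.911 for 8 sterol genes, IDI1, FDFT1, SQLE, LSS, CYP51A1, MSMO1, HSD17B7 and INSIG1, against 17.1% of genes, and above 0.911 for none, against 16.5%. With reads of a row that shares their region added, CYP51A1 left both counts and DHCR7 the first, though the read numbers of those rows were not settled. HSD17B7, measured only through the control, is no support in either count. The 36 members had a median of 449.5 reads in the control where such genes had 224, and more reads give narrower intervals, so these shares compare genes of unequal precision.

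Among the genes that lead to farnesyl diphosphate, 1 stood out. IDI1 (chromosome 10, 1085848 to 1095110, hg19), which interconverts the 2 isopentenyl diphosphate isomers, was at 12.2 RPKM with the empty vector and 5.95 RPKM with the ANGPTL4 plasmid. These values rest on 287 and 69 reads, a ratio of 0.489 (0.370 to 0.638), and only 2.53% of measured genes had a lower log2 ratio. The other 6 genes of this stretch had ratios between 0.854 and 1.27, and every one of their intervals included 1.

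HMGCS1, the cytosolic HMG-CoA synthase that commits acetoacetyl-CoA to the pathway, was at 35.0 and 32.8 RPKM with vector and ANGPTL4 plasmid, a ratio of 0.938 (0.842 to 1.04). FDPS, farnesyl diphosphate synthase, was at 24.3 and 22.8 RPKM. MVD, which decarboxylates mevalonate diphosphate, was at 11.6 and 10.6 RPKM. These 3 ratios all lay close to that of the median gene. ACAT2, the cytosolic acetoacetyl-CoA thiolase, was at 8.59 and 7.85 RPKM, and the mevalonate kinase MVK at 4.25 and 3.63 RPKM. PMVK, the phosphomevalonate kinase, was nominally higher, at 2.85 and 3.62 RPKM, but from only 24 and 15 reads, and its interval ran from 0.620 to 2.52.

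All 3 genes that make squalene and close it to lanosterol were lower, with intervals below the median gene's ratio, against 17.1% of genes with settled read numbers. SQLE, squalene epoxidase, a rate-limiting enzyme of the pathway, was at 34.8 RPKM with the empty vector and 22.6 RPKM with the ANGPTL4 plasmid (986 and 315 reads), a ratio of 0.649 (0.570 to 0.738). FDFT1, squalene synthase, was at 30.1 and 23.6 RPKM, a ratio of 0.784 (0.697 to 0.881). LSS, lanosterol synthase, was at 8.51 and 6.37 RPKM, a ratio of 0.748 (0.616 to 0.904). In the control library SQLE equalled HMGCS1 to within 1 RPKM, and in the ANGPTL4 library it lay about 10 RPKM below it.

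The 8 genes that turn lanosterol into cholesterol were less uniform, with 7 lower and 1 higher. MSMO1, the sterol C4-methyl oxidase, was at 26.7 and 19.6 RPKM with vector and ANGPTL4 plasmid (507 and 183 reads), a ratio of 0.734 (0.616 to 0.870). HSD17B7, a ketoreductase of C4 demethylation, was the lowest sterol gene in both libraries, at 1.55 and 0.525 RPKM, and its ratio of 0.339 (0.128 to 0.761) rests on 42 and 7 reads. NSDHL, which acts beside them on the C4 methyl groups, was at 10.7 and 8.37 RPKM, a ratio of 0.784 (0.562 to 1.08). All 3 genes of C4 demethylation had lower values, where 64.4% of all measured genes were lower. HSD17B7 was measured only through the control, and the interval of NSDHL included both 1 and the 0.911 of the median gene.

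DHCR7, the enzyme of the last reduction to cholesterol, had the highest level in the branch, at 73.7 and 66.9 RPKM, a ratio of 0.907 (0.838 to 0.982) whose interval holds the 0.911 of the median gene. The row RP11-660L16.2 lies within its region over 3484 bases and was at 14.5 and 24.1 RPKM. Its read numbers were not settled, and with 65 and 53 reads added for it the ratio was 0.931 (0.861 to 1.01). SC5D, the sterol C5-desaturase, was at 5.14 and 3.94 RPKM, a ratio of 0.768 (0.576 to 1.01). TM7SF2, a sterol C14-reductase, was at 3.88 and 3.63 RPKM. EBP, the sterol isomerase that shifts the ring double bond, was the 1 higher gene of this stretch, at 13 and 14.6 RPKM, with an interval of 0.887 to 1.42.

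CYP51A1, the lanosterol 14-demethylase, was at 18.6 RPKM with the empty vector and 13.7 RPKM with the ANGPTL4 plasmid (499 and 181 reads), a ratio of 0.737 (0.619 to 0.876). Its annotated region (chromosome 7, 91741465 to 91772266, hg19) is shared over 30794 bases by LRRD1, which was at 0.520 and 3.42 RPKM. Summing the reads of both, with those of LRRD1 at the smallest whole numbers its values allow (25 and 81), gave a ratio of 1.02 (0.873 to 1.18). The pseudogene CYP51A1P2 was likewise at 0.304 and 2.06 RPKM. LRRD1 extends beyond CYP51A1, to 91808845, and its read numbers were not settled. Which of its reads belong to CYP51A1 is not known, so the sum does not decide whether CYP51A1 was lower.

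The genes that sense or carry sterols were not alike. SREBF2 was at 31.3 RPKM with the empty vector and 29.6 RPKM with the ANGPTL4 plasmid, a ratio of 0.944 (0.863 to 1.03), and SCAP at 12.4 and 12.7 RPKM, a ratio of 1.02 (0.875 to 1.19). INSIG1, which retains SCAP and is itself a classical SREBP target, was at 12.4 and 8.90 RPKM (298 and 105 reads), a ratio of 0.716 (0.568 to 0.898). STARD4, a soluble sterol carrier that is likewise induced by SREBP-2, was at 3.83 and 2.61 RPKM (143 and 48 reads), a ratio of 0.682 (0.481 to 0.952). The intervals of the factor and its escort included 1, and that of STARD4 included the 0.911 of the median gene. The intervals of the other genes of the branch were also mixed, though none lay wholly above 1. The intervals of HMGCS1 and FDPS, among others, included 1, while those of IDI1, FDFT1, SQLE, LSS and MSMO1, among others, lay below 1. Whether SREBP activity differed was not tested.

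**Figure D2:**
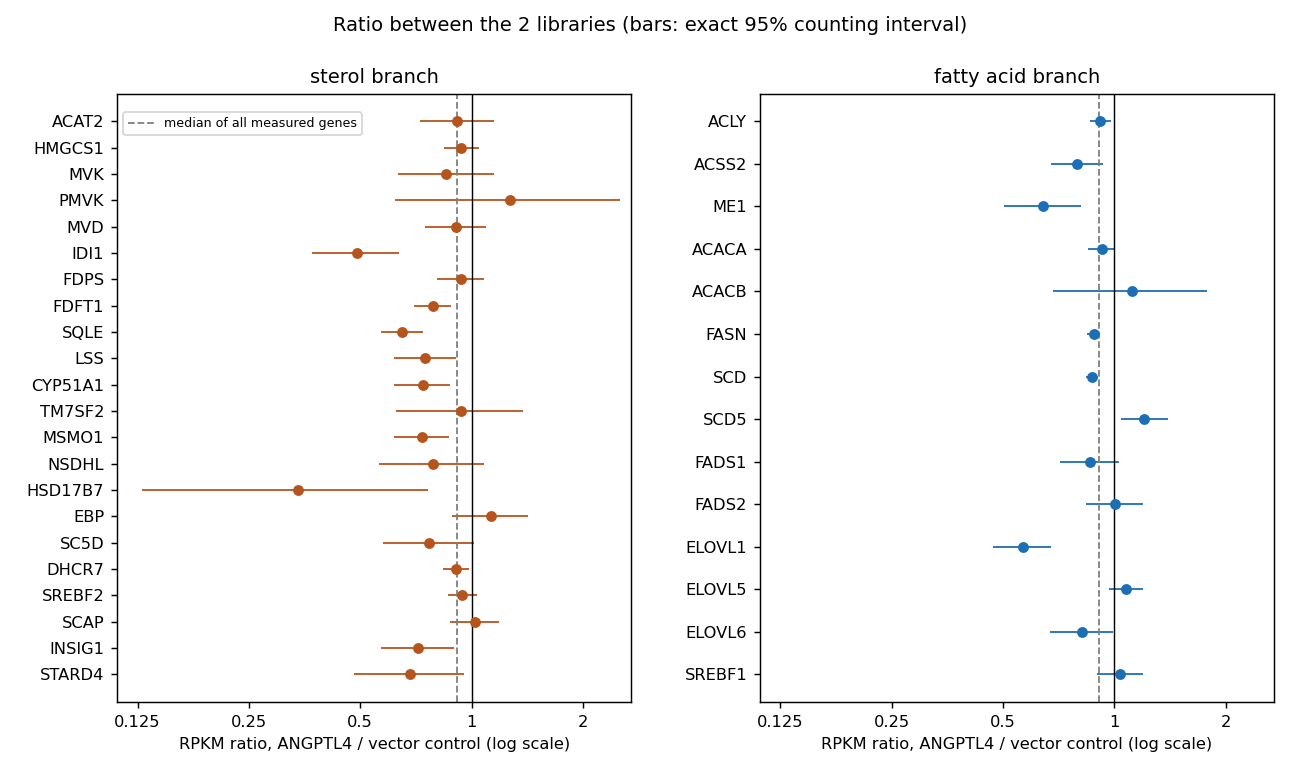
RPKM ratio of ANGPTL4 over vector control library (log axis) for each gene, with exact 95% counting intervals, in pathway order. The solid line marks 1 and the dashed line 0.911, the median ratio of all measured genes. The intervals of FDFT1, SQLE, LSS, MSMO1 and INSIG1 lie to the left of the dashed line, and that of SCD5 lies to the right of both lines.

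The promoters of many of these genes hold a CCAAT box. SREBPs bind sterol regulatory elements together with NF-Y, which recognises the CCAAT box. RefSeq windows (GRCh38.p14) from 250 bases before to 50 after a start were given for 32 of the 36 genes, 43 windows in all, since some genes have several starts. CCAAT, on either strand, was present in 75% of the 24 windows of sterol genes and 57.9% of the 19 windows of fatty acid genes, where 34.6% of all 35116 windows held it. The letters TCACNCCAC, the classical sterol regulatory element, also sought on both strands, were present in 1.13% of all windows and in 1 member window, that of SREBF2. CANNTG, the E-box, was present in 66.7% of sterol, 52.6% of fatty acid and 68.7% of all windows. A match of letters is a description and shows no binding.

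The stretch of SREBF2 with its sterol regulatory element in capitals is shown first, because SREBF2 is the regulator of the branch, and the inverted CCAAT of this gene follows closely in lower case. The others, chosen after their values were seen, are genes whose intervals lay below 1, and capitals mark CCAAT or its complement ATTGG, 5′ to 3′ along the gene.
SREBF2, chr22:41832942-41833010, plus strand: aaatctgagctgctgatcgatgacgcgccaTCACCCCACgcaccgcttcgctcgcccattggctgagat
IDI1, chr10:1048954-1049033, minus strand: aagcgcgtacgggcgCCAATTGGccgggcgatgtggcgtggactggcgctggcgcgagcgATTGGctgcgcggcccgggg
LSS, chr21:46228905-46228939, minus strand: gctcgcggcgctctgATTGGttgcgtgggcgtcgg
MSMO1, chr4:165327469-165327654, plus strand: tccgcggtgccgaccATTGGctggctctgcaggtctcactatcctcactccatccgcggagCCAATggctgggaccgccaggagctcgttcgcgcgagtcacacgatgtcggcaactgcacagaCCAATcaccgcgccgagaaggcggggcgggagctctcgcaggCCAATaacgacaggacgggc
HSD17B7, chr1:162790635-162790669, plus strand: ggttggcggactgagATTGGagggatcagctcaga
INSIG1, chr7:155297693-155297727, plus strand: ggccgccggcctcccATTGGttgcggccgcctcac
STARD4, chr5:111512646-111512711, minus strand: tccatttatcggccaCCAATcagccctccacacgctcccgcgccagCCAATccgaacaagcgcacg
ELOVL1, chr1:43368057-43368091, minus strand: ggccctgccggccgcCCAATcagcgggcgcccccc
MSMO1 held 4 CCAAT boxes in its 186 bases, IDI1 held 3, of which the first 2 overlap, STARD4 held 2, and LSS, HSD17B7, INSIG1 and ELOVL1 held 1 each in the part shown. CCAAT was not limited to the lower genes, since the windows of HMGCS1, FDPS, MVD and EBP, whose intervals included 1, held it too. The windows of CYP51A1, ME1 and ELOVL6, whose intervals lay below 1, held none.

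In the fatty acid branch ELOVL1 and ME1 had the lowest ratios, and SCD5 was the gene whose interval lay above 1. Of 14 genes, 13 were measured, 9 of them lower and 4 higher (69.2% lower against the 64.4% of all genes), with a median log2 ratio of -0.18. Only ELOVL1 reached 1.5-fold, against 9.25% of all measured genes, and ME1, with a log2 ratio of -0.58, lay just inside that limit. The counting interval lay below 1 for 7 genes, against 28.2% of all genes, and above 1 for 1 gene, against 8.61%. Relative to the median gene's 0.911 it lay below for 3, ELOVL1, ME1 and SCD, and above for 2, SCD5 and ELOVL5, both near the 17.1% and 16.5% of all genes. The summed level of the branch was 656 RPKM with the empty vector and 577 RPKM with the ANGPTL4 plasmid.

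All 3 genes that supply acetyl-CoA and NADPH were lower, where 64.4% of all measured genes were. ME1, the cytosolic malic enzyme that yields NADPH, was at 13.2 RPKM with the empty vector and 8.51 RPKM with the ANGPTL4 plasmid (294 and 93 reads), a ratio of 0.643 (0.504 to 0.814). ACSS2, which activates acetate, was at 15.4 and 12.2 RPKM, a ratio of 0.793 (0.674 to 0.931). ACLY, which splits citrate into acetyl-CoA, was at 83.3 and 76.4 RPKM, and its ratio of 0.916 (0.857 to 0.979) was that of the median gene.

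FASN and ACACA, the measured genes of palmitate synthesis, had ratios close to that of the median gene. FASN, fatty acid synthase, was at 133 RPKM with the empty vector and 117 RPKM with the ANGPTL4 plasmid (7838 and 3396 reads), a ratio of 0.881 (0.846 to 0.917). ACACA, the cytosolic acetyl-CoA carboxylase, was at 19.3 and 17.8 RPKM, a ratio of 0.923 (0.847 to 1.0). ACACB, the carboxylase of the outer mitochondrial membrane, was the 1 gene under 1 RPKM, at 0.570 and 0.633 RPKM from 53 and 29 reads. Per length, ACACA exceeded ACACB 33.9-fold in the control and 28.2-fold in the ANGPTL4 library.

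The 2 stearoyl-CoA desaturases, which place the first double bond, differed in opposite directions. SCD had the highest level of all 36 genes, at 274 RPKM with the empty vector and 239 RPKM with the ANGPTL4 plasmid (9665 and 4137 reads), a ratio of 0.870 (0.839 to 0.902). SCD5, its paralogue, was at 16.5 and 19.9 RPKM (494 and 293 reads), a ratio of 1.21 (1.04 to 1.40). The level of SCD over SCD5 went from 16.6-fold with the vector to 12-fold with the ANGPTL4 plasmid, and the intervals of the 2 ratios did not overlap.

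FADS1 and FADS2, the desaturases of polyunsaturated fatty acids, have overlapping annotated regions, so their reads are uncertain. FADS1 was at 5.99 and 5.14 RPKM and FADS2 at 5.28 and 5.30 RPKM, and their summed reads gave a ratio of 0.928 (0.817 to 1.05). The pair therefore lay at the median gene's ratio.

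The elongases also diverged. ELOVL1 (chromosome 1, 43829068 to 43833696, hg19), which extends saturated and monounsaturated very long chains, was at 35.4 RPKM with the empty vector and 20.005 RPKM with the ANGPTL4 plasmid (572 and 159 reads), a ratio of 0.565 (0.471 to 0.675), and 4.03% of measured genes had a lower log2 ratio. ELOVL5, which extends polyunsaturated chains, was at 35.5 and 38.1 RPKM (984 and 520 reads), a ratio of 1.07 (0.964 to 1.20). Both genes had almost the same level in the control library, and in the ANGPTL4 library ELOVL1 was at 0.525 times the level of ELOVL5. ELOVL6, which extends palmitate to stearate, was at 7.61 and 6.23 RPKM, a ratio of 0.819 (0.671 to 0.994).

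SREBF1, whose protein drives the fatty acid genes, was at 11.1 RPKM with the empty vector and 11.5 RPKM with the ANGPTL4 plasmid, a ratio of 1.04 (0.898 to 1.19). Per length, SREBF2 exceeded SREBF1 2.81-fold in the control and 2.56-fold in the ANGPTL4 library. Neither SREBP transcript differed beyond counting error.

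**Figure D3:**
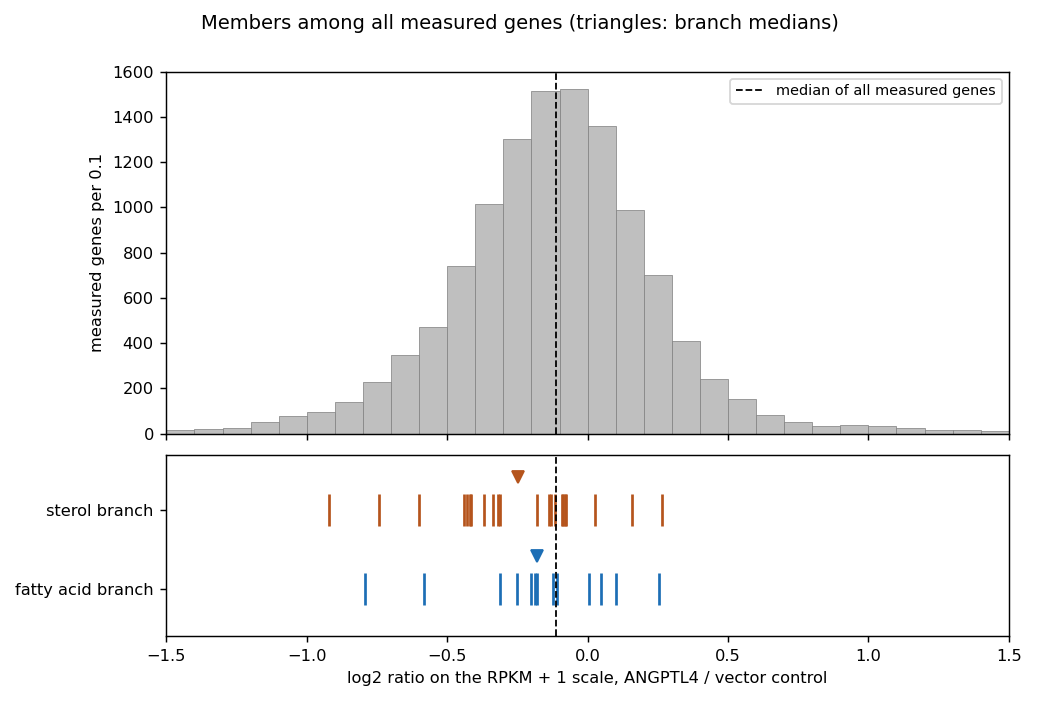
Upper panel, number of measured genes per 0.1 of log2 ratio on the RPKM + 1 scale, ANGPTL4 over vector control, between -1.5 and 1.5. Lower panel, 1 tick per measured member, with a triangle at each branch median (-0.25 and -0.18) and a dashed line at the median of all measured genes (-0.11). Ticks of both branches spread across the bulk of the genes, with IDI1, ELOVL1 and HSD17B7 farthest to the left.

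Other genes of these pathways were taken from lists that hold no member. Of 19 further sterol and isoprenoid enzymes, 14 were lower and 5 higher, with a median log2 ratio of -0.13. That is 73.7% lower, near the 64.4% of all measured genes, whose median was -0.11. At least 1.5-fold lower were 3 of the 19, against 9.25% of all measured genes. FNTA and FNTB, the subunits of farnesyltransferase, which uses farnesyl diphosphate to modify proteins, were both lower. FNTA was at 7.92 and 4.92 RPKM and FNTB at 3.37 and 0.736 RPKM, the latter from 93 and 10 reads and above 1 RPKM only with the vector. The read-through gene CHURC1-FNTB covers FNTB and was at 0.806 and 3.87 RPKM, and the summed reads gave a ratio of 0.704 (0.468 to 1.04). For FNTA the ratio was 0.622 (0.515 to 0.747), or 0.647 (0.538 to 0.774) with the reads of RP11-598P20.5, which spans its region and whose read numbers were not settled. C14orf1, the scaffold of C4 demethylation known as ERG28, was at 10.5 and 5.76 RPKM, a ratio of 0.547 (0.391 to 0.754), with TTLL5 and FLVCR2, both higher in the ANGPTL4 library, annotated across its region. The highest log2 ratio of this list was that of RABGGTB, a subunit of the enzyme that prenylates Rab proteins, at 7.20 and 9.25 RPKM.

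In the machinery that processes SREBPs or degrades sterol-regulated proteins, 7 of 12 genes were lower and 5 higher, with a median log2 ratio of -0.15. The share lower was 58.3%, against 64.4% of all measured genes. C12orf49, later named SPRING for its part in SREBP activation, was the lowest, at 11.8 RPKM with the empty vector and 5.56 RPKM with the ANGPTL4 plasmid (714 and 165 reads), a ratio of 0.470 (0.394 to 0.557). No other gene above 1 RPKM is annotated across it. UBE2G2, a ubiquitin-conjugating enzyme of endoplasmic reticulum degradation, was the highest, at 11.7 and 15.7 RPKM, a ratio of 1.34 (1.17 to 1.53).

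Sterol transport genes had a median log2 ratio of -0.03, with 6 of 9 measured genes lower and none past 1.5-fold on the RPKM + 1 scale. That is 66.7% lower, against 64.4% of all measured genes, of which 9.25% were at least 1.5-fold lower. STARD3, a sterol carrier of late endosomes, was the lowest, at 7.14 and 4.61 RPKM, a plain ratio of 0.647. The sterol exporter ABCG1 was the highest, at 3.75 and 3.84 RPKM. Of 30 further genes of fatty acid synthesis, 26 were measured, 19 lower and 7 higher (73.1% lower), with a median of -0.13. At least 1.5-fold lower were 2 of the 26. IDH1, the cytosolic NADP-dependent isocitrate dehydrogenase, was at 17.3 and 10.2 RPKM, a ratio of 0.592 (0.492 to 0.708). HSD17B12, a ketoreductase of the elongation cycle, was at 8.46 and 5.14 RPKM, a ratio of 0.608 (0.501 to 0.734). ELOVL3 had the highest log2 ratio, from only 6 and 5 reads.

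How many members counted as lower depended on how the libraries were scaled, since a scaling shifts all genes together. The distance of the branches from the other genes could therefore hardly move with it. The 13 protein-coding mitochondrial genes took 5.11% of reads with the vector and 8.71% with the ANGPTL4 plasmid, and RPKM divides by all reads. Mitochondrial rRNA and tRNA are not in these shares. After both libraries were centred on the median gene, 15 of 22 sterol genes and 8 of 13 fatty acid genes were lower, where 50% of all genes are by construction, with medians of -0.13 and -0.07. With upper-quartile scaling 12 of 22 and 7 of 13 were lower, against 47.6% of all genes. The members with the lowest log2 ratios, IDI1, ELOVL1, HSD17B7, SQLE and ME1, were lower under every scaling. This was fixed in advance, because the largest shift, that of the upper quartile, was only 0.156 in log2. Upper-quartile scaling raises every ANGPTL4 value by the same factor, 1.11. The members near the median gene turned higher with it, namely ACAT2, HMGCS1, MVD, FDPS, TM7SF2, DHCR7, SREBF2, ACLY and ACACA. Among these, only DHCR7 and ACLY had an interval below 1 as deposited. The sterol median lay 0.13 below that of all genes as deposited and 0.14 below it with the upper quartile, and the fatty acid median 0.07 and 0.05 below it. Filters moved the sterol distance more, to 0.06 with at least 200 reads over both libraries and to 0.21 without overlapping genes. Under each of the 11 settings compared, the sterol median stayed below that of all measured genes. For centring on the median gene and for the rescalings this was fixed in advance, so those settings are no support. The other settings reuse the same 2 libraries and the same sterol genes or a part of them, so they are no independent support either.

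**Figure D4:**
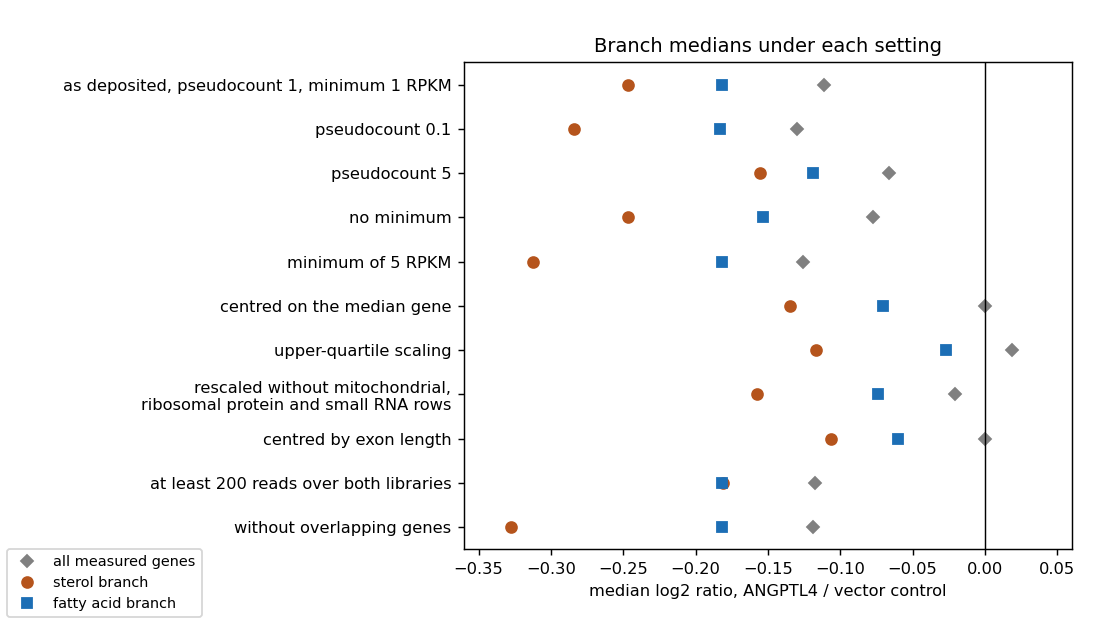
Median log2 ratio, ANGPTL4 over vector control, of the sterol branch (circles), the fatty acid branch (squares) and all measured genes (diamonds) under each setting. The circles stay to the left of the diamonds throughout, by between 0.06 and 0.21. The squares lie between them, except for a minimum of 200 reads, where square and circle coincide.

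Over all measured genes with a settled length, exon length and log2 ratio were only weakly related, with a Spearman's rho of 0.08. Measured genes with exons under 3 kb had a median log2 ratio of -0.14, those of 3 to 6 kb -0.13, and those over 6 kb -0.09. The median exon length was 4232.5 bases for the sterol genes, 5389 bases for the measured fatty acid genes and 4992 bases for all such genes. Within the 22 sterol genes, Spearman's rho of length and log2 ratio was 0.00, and over the 13 fatty acid genes it was 0.28, with all points from the same 2 libraries. The part of length in the ratios of single genes was not tested. Of the 36 genes, 10 have an annotated region shared with another gene above 1 RPKM, 6 sterol and 4 fatty acid genes, and whether strand was used in counting is not given in the sources used here.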

How the data were processed

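Values are RPKM as deposited by the authors, 1 per gene row and library, per the file headers, and per the submitters' processing notes the build was hg19. The aligner, counting program, annotation release and use of strand are not given in the sources used here. Rows of 1 symbol were summed, and region starts are printed counted from 1. The library total was the number at which all 13 protein-coding mitochondrial genes became whole reads (tolerance 0.001). The best other total within 5% made 3 and 2 whole. Exon lengths were recovered row by row, as the integer nearest the GENCODE 29 exon length at which both libraries gave whole reads. It was within 1.5-fold of that length, and called settled, for 85.5% of 18483 rows above 0 and for all 36 genes, 19 of which had exactly the GENCODE length. Log2 ratios use a pseudocount of 1, which understates differences of low genes, and a minimum of 1 RPKM in 1 library. Intervals are Clopper-Pearson intervals of the share of reads, turned into ratios (Python 3.11.15, scipy 1.17.1). The functions were tested on simulated data. The members, lists, 1.5-fold rule and printed promoters were chosen with earlier results of these data known. All 36 genes are accounted for, and of the other lists the text names genes past 1.5-fold and each list's lowest and highest gene, except 1 gene that is not reported here.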

Additional observations from a re-analysis of the deposited data

How the results depend on the processing

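No paired analysis was possible because there is 1 library per group, and leaving out a replicate could not be tried. Centring on the median gene gave 7 higher sterol genes, upper-quartile scaling 10 higher and 12 lower, rescaling to equal totals with mitochondrial, small RNA and ribosomal protein genes left out 7 higher, and centring by exon length 8 higher. The sterol median was then -0.135, -0.117, -0.158 and -0.107 in the same order, and the fatty acid median -0.0702, -0.0269, -0.0741 and -0.0601. With a pseudocount of 5, 1 sterol gene was 1.5-fold lower, and with 0.1, 2 fatty acid genes. Without genes whose regions overlap others, 2 fatty acid genes were higher, since fewer genes were left. Among single members, DHCR7 turned to 0.0158 and ACLY to 0.0298 with upper-quartile scaling, and ACLY to 0.0155 when centred by exon length. Of the other values of single members, 259 moved by less than the reach of their counting interval to either side and 13 by more, and a change of sign was counted only where the interval did not include a ratio of 1. Centring by exon length, a minimum of 200 reads over both libraries and leaving out overlapping genes were chosen after seeing the data. Values that turn on few reads, those of HSD17B7 and PMVK above all, are limited by depth.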
